A study of Homo sapiens with 13 samples.

Results

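The strong initiation zones of untreated PC9 cells are places in the genome where the direction of replication forks turned most sharply. Polarity is the difference between the reads on the 2 strands of a window as a percent of their sum, and runs from -100 to 100. The untreated mean polarity was taken in non-overlapping windows of 20 kb on chromosomes 1 to 22, and the step at each window boundary was the mean of the 3 windows on its right minus the mean of the 3 on its left. A boundary was kept where this step was at least 100 points and was the highest within 5 boundaries on either side. Of 129259 boundaries with an untreated step, 385 were kept as zones (0.298%). The values of the untreated libraries chose the zones, so those values are a description and support nothing.

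TrAEL-seq captures the free 3' ends of genomic DNA and keeps the strand they lay on, which in growing cells follows replication forks. It was applied to PC9, an established lung adenocarcinoma line that depends on mutant EGFR, and to derivatives of it under osimertinib, an inhibitor of that receptor. The groups were 3 untreated libraries taken during normal growth, PC9 kept in 500 nM osimertinib for 7 days (2 libraries), 14 days (2) or 28 days (4), and 1 library each of resistant lines 5 and 10. Each resistant line came from a single cell clone of PC9, was kept in 500 nM osimertinib and was growing when taken, whereas the 28-day cultures were not proliferating. The comparison addresses what becomes of the initiation zones of growing cells in cells that persist under the drug and in cells that grow in it.

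The labels of 2 libraries conflict. Replicates 3 and 4 of day 28 are titled day 28, yet their treatment entry says 7 days. Here they count as day 28, and the group's mean step and its mean differences from other groups are given without them too. Replicate 3 also had the highest mean step of the 4 day 28 libraries. The labels do not say that replicates came from separate cultures, so the errors measure the spread between libraries, which may be technical. The files hold no read counts, and the depth behind each polarity is unknown. As a guide, 82.6% to 93.4% of windows had a value in 12 libraries and 62.6% in day 7 replicate 1, which gave a step at 266 of the 385 zones.

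Human cells start replication in broad initiation zones, each a cluster of places where licensed MCM helicases may be activated in S phase. The paired forks of an origin run in opposite directions, so the left flank of a zone is copied by leftward forks and the right flank by rightward forks. Across a population this appears as a rise of polarity from negative to positive, and a steep rise means that many cells fire within a short stretch. The sources used here do not give which strand counts as positive; rises were taken as initiation because they were steeper than falls, an assignment made after the data were seen. Active genes often border such zones, with the promoter on the side of the zone and transcription running away from it.

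The closest promoters of known strand at the steepest zones show what the sequence beside a zone looks like. At 6 of the 8 zones with the highest untreated step, the nearest start in the RefSeq table (GRCh38.p14) lay within 50 kb. Only this nearest promoter is printed for each zone. The genes DCAF1, TENT4A and COBL beside these zones had no known strand, so their promoters are not printed. Each promoter is given from 250 bases before to 50 after the gene start, 5' to 3' on the gene's strand, with every CG in capitals. CG is the pair that marks CpG island promoters. WWC1 lies at chr5:168291395-168291694 (plus strand), UBASH3B at chr11:122655472-122655771 (plus) and ARHGEF4 at chr2:130836664-130836963 (plus). ARHGAP10 lies at chr4:147731838-147732137 (plus), STON2 at chr14:81436416-81436715 (minus) and RAD54L2 at chr3:51538469-51538768 (plus).
WWC1: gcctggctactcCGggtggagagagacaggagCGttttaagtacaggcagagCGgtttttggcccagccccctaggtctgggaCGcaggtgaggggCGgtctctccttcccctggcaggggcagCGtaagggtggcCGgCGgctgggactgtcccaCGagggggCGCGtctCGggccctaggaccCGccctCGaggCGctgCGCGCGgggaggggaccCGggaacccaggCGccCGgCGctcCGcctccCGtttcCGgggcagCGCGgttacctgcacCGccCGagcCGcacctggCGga
UBASH3B: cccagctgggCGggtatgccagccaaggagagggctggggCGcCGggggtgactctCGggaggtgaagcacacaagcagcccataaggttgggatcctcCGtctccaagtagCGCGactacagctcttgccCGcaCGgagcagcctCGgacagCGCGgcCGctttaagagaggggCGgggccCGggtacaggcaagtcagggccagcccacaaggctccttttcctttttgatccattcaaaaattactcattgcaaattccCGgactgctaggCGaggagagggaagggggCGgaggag
ARHGEF4: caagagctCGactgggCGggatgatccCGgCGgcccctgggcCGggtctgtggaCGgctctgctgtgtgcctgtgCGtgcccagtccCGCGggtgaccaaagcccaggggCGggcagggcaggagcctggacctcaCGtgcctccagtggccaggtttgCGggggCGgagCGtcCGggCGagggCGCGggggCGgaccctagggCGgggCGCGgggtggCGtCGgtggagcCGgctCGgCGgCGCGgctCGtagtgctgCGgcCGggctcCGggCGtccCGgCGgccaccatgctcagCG
ARHGAP10: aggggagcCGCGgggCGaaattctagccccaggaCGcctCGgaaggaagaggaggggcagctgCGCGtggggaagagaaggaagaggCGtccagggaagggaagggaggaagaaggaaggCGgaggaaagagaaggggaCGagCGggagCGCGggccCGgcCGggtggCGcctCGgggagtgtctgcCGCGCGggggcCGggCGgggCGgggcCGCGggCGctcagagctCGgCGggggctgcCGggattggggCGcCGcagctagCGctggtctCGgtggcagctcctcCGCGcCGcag
STON2: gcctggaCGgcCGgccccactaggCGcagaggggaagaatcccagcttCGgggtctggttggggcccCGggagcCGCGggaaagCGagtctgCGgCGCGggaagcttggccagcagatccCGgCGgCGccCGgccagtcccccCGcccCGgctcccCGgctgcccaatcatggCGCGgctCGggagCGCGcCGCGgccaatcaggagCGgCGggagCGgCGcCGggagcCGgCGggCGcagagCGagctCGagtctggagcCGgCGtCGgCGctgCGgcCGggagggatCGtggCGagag
RAD54L2: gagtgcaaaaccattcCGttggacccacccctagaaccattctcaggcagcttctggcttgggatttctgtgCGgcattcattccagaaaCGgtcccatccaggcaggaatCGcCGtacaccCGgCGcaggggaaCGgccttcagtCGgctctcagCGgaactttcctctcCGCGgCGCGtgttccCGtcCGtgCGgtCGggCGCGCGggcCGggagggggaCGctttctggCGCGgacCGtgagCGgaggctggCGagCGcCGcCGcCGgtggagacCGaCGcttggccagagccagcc
These windows hold 31 (WWC1), 18 (UBASH3B), 37 (ARHGEF4), 36 (ARHGAP10), 43 (STON2) and 34 (RAD54L2) CG pairs, against a median of 22 over 15100 promoters of protein-coding genes. None holds the letters TATAAA, and all but RAD54L2 hold the GC box letters GGGCGG, both searched on both strands. All but UBASH3B are therefore well above the median promoter in CG, and UBASH3B is below it.

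The 385 zones had untreated mean steps from 100.007 to 159 points, with a median of 110 and quartiles of 104 and 120. The values just inside the limit were 100.007, 100.026 and 100.04, and those just outside were 99.96, 99.92 and 99.92, so the limit cuts through a continuous range. The 574 boundaries at or above 100 (0.444% of all) reduced to these 385 peaks. In 171 zones (44.4%) each of the 3 untreated libraries reached 100 by itself. Zones were spread over all 22 autosomes, with most on chromosomes 2 (41), 3 (37) and 1 (33). Per 1000 boundaries they were most frequent on chromosome 21 (5.08) and least on chromosome 13 (1.69). The nearest other zone lay a median of 2420 kb away, and 27 zones (7.01%) had one within 500 kb.

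To measure the untreated level without the values that chose the zones, zones were chosen from each pair of untreated libraries and read in the library left out. The library left out had a mean step of 108 points in replicate 1 (392 zones), 114 in replicate 2 (341 zones) and 95.5 in replicate 3 (509 zones). The mean over these libraries was 106 ± 9.45 (SD, n = 3). Every zone had a positive step in the library left out, and 64.3%, 75.7% and 39.5% again reached 100. The zones are thus found again in an untreated library that did not choose them, at a somewhat lower step.

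Steps at the 385 zones were smaller in every library under osimertinib and stayed above 0 at most zones. The untreated libraries had mean steps of 115, 120 and 104 points. Day 7 had 57.1 and 34.9, and day 14 had 35.9 and 64.0. Day 28 had 23.7, 24.2, 48.5 and 35.2, in the order of the replicates. Resistant line 5 had 34.8 and line 10 had 76.2. The untreated libraries, which chose the zones, stand above all others. Line 10 comes next, and line 5 lies among the day 7, 14 and 28 libraries.

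As group means, the step was 46.0 ± 15.7 points at day 7 (SD, n = 2), 50.0 ± 19.9 at day 14 (n = 2), 32.9 ± 11.7 at day 28 (n = 4) and 55.5 ± 29.3 in the resistant lines (n = 2). Without replicates 3 and 4, day 28 was 23.9 ± 0.354 (n = 2). The 8 osimertinib libraries of the parental line together were at 40.4 ± 14.7 and did not overlap the untreated libraries left out of the choice (95.5 to 114). The day 7, day 14 and day 28 ranges overlapped one another. Cells without forks and cells with forks of less even direction cannot be told apart in such a mean, since each library pools many cells.

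**Figure D1:**
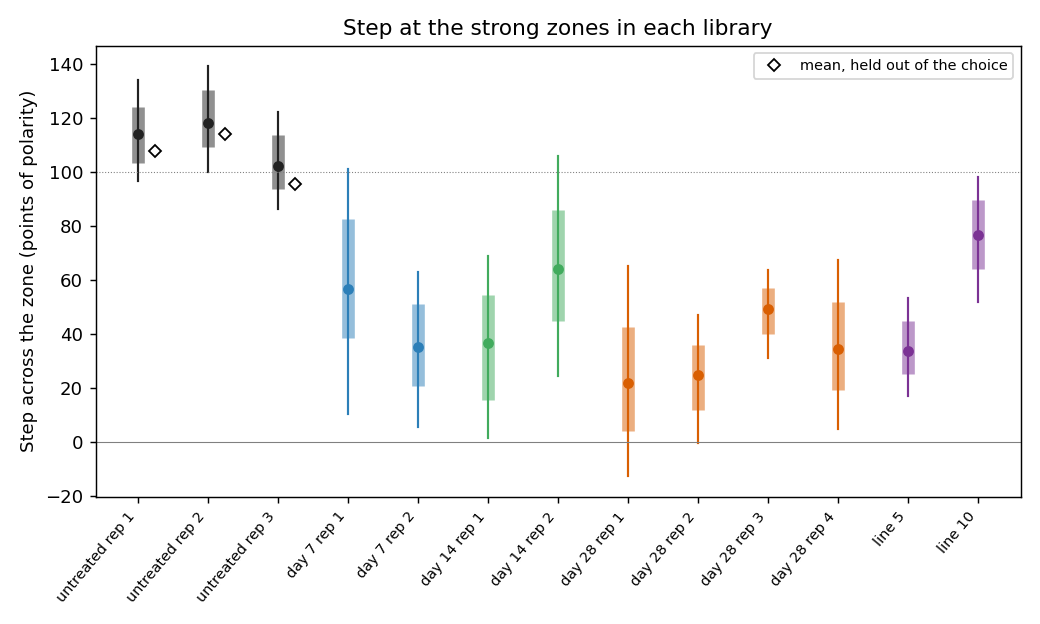
Step across the 385 strong zones in each library, in points of polarity; dots are medians over zones, thick bars quartiles, thin lines the 10th to 90th percentiles, and open diamonds the mean in the untreated library left out of the choice (108, 114 and 95.5). The 10 libraries not used by the rule have medians from 21.98 to 76.7, all below the dotted line at 100.

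The loss was much the same on both flanks of the zones. Over the 3 windows on each side, untreated replicate 1 went from -56.3 to 58.4 points of polarity, line 10 from -38.1 to 38.1 and line 5 from -17.6 to 17.2. Day 28 replicate 1 went from -12.5 to 11.8, replicate 2 from -12.4 to 11.7, replicate 3 from -24.2 to 24.2 and replicate 4 from -16.5 to 18.5. Neither flank alone therefore carries the smaller step in these libraries.

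The mean profile over 500 kb on either side was lower in the other libraries. The untreated libraries chose the zones, and no profile was made in a library left out of the choice. How far the profiles reach is therefore a description, read in windows of 20 kb, and was not tested. In untreated cells polarity ran from a lowest mean of -73.3 to -63.8 on the left to a highest of 65.4 to 74.4 on the right. It was midway back to 0 at 210 to 230 kb from the boundary. In line 10 the extremes were -46.8 and 45.7, in line 5 -20.9 and 20.2, and in day 28 replicate 2 -17.9 and 15.3. The midway distance on the left and right was 230 and 230 kb in line 10 and 230 and 250 kb in line 5. It was 210 and 270 kb in both day 7 libraries, 210 to 250 kb at day 14 and 210 to 310 kb at day 28. Polarity already changed sign between the windows that touch the boundary, by 62.2 to 75.3 points in untreated libraries, 47.3 in line 10, 23.8 in line 5 and 14.5 to 30.4 at day 28.

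**Figure D2:**
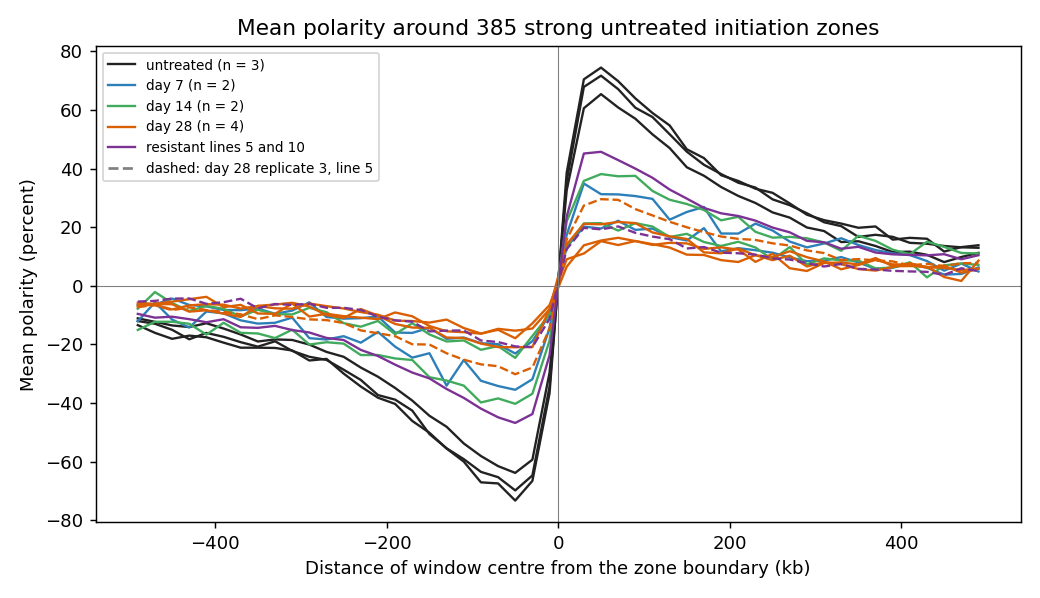
Mean polarity in percent around the 385 zones in 20 kb windows, 1 line per library, against the distance of the window centre from the zone boundary in kb. All 13 lines cross 0 at the boundary; the untreated lines reach 65.4 to 74.4 on the right, line 10 reaches 45.7 and the day 28 lines 15.3 to 29.5.

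The zones kept 22.4% to 45.0% of the untreated step in the day 28 libraries. Each value is the library's mean step at the zones of a pair of untreated libraries, as a percent of the step in the untreated library left out, averaged over the 3 choices of pair. The 4 day 28 libraries had 22.6%, 22.4%, 45.0% and 32.2%. Day 7 had 53.2% and 32.7%, day 14 had 33.8% and 59.3%, line 5 had 31.8% and line 10 had 71.2%. Weaker zones had an untreated step from 40 to under 100 points (3672 from all 3 untreated libraries). For these shares they were chosen from the same pairs (3790, 3682 and 4046 zones). Weaker zones kept 18.5%, 20.1%, 40.8% and 29.5% at day 28, 28.2% in line 5 and 67.1% in line 10. The share was higher at strong than at weaker zones in each of the 10 libraries, by 2.28 to 5.20 percentage points. All 10 libraries are set against the same untreated values, and this difference was not tested.

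Most zones kept a positive step in each of the other libraries. The step was above 0 at 91.7% and 91.9% of zones in the day 7 libraries (50.1% and 49.7% of all boundaries) and at 91.2% and 96.2% in the day 14 libraries (49.9% and 49.7%). In the day 28 libraries it was above 0 at 79.0%, 89.6%, 100% and 92.7% of zones (50.0%, 49.9%, 47.0% and 49.9%). In line 5 it was above 0 at 99.2% (49.1%) and in line 10 at 100% (45.7%). Both lines were above 0 at 382 of 385 zones (28.4% of boundaries), and all 4 day 28 libraries at 245 of 370 (66.2%; 9.32% of boundaries). These shares are far from the background. A change of sign, with the left flank below 0 and the right flank above 0, was less frequent than a positive step. It was seen at 72.2% and 65.4% of zones in the day 7 libraries (15.1% and 16.6% of boundaries) and at 60.8% and 74.1% in the day 14 libraries (16.8% and 13.2%). In the day 28 libraries it was seen at 50.3%, 64.7%, 90.1% and 64.1% of zones (19.5%, 16.2%, 11.3% and 17.1%), in line 5 at 87.5% (15.1%) and in line 10 at 96.1% (11.7%). Among the 261 zones with a step in all 13 libraries, 142 (54.4%) were above 0 in all 10 libraries that the rule did not use, against 2.93% of all boundaries. A further 89 were above 0 in 9 of 10, 26 in 8, 3 in 7 and 1 in 6, and no zone in fewer. Day 28 replicate 1 was the only library at or below 0 in 33 of the 89, day 7 replicate 1 in 15 and day 14 replicate 1 in 14.

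The steepest place also stayed within 1 boundary of the zone at most zones in most libraries. In each library the boundary with the highest step was sought within 5 boundaries (100 kb) on either side of the zone, over zones with a step at all of these boundaries. It lay within 1 boundary (20 kb) of the zone in 98.4% to 99.7% of zones in the untreated library left out, 97.9% in line 10 and 84.7% in line 5. The share was 71.7% (of 180 zones) and 63.4% at day 7, 60.6% and 78.1% at day 14, and 45.5%, 56.1%, 95.8% and 65.4% at day 28. Taken around every boundary of the genome in the same way, it was 23.5% to 28.1%. The zone boundary itself was steepest at 67.5% to 72.8% of zones in the untreated library left out. It was steepest at 75.6% in line 10, 62.1% in day 28 replicate 3 and 16.6% to 48.3% in the other libraries not used by the rule. Day 28 replicate 3 is thus close to the growing cells in position and replicate 1 is farthest from them. The part that noise in the polarity plays in these shares was not tested.

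**Figure D3:**
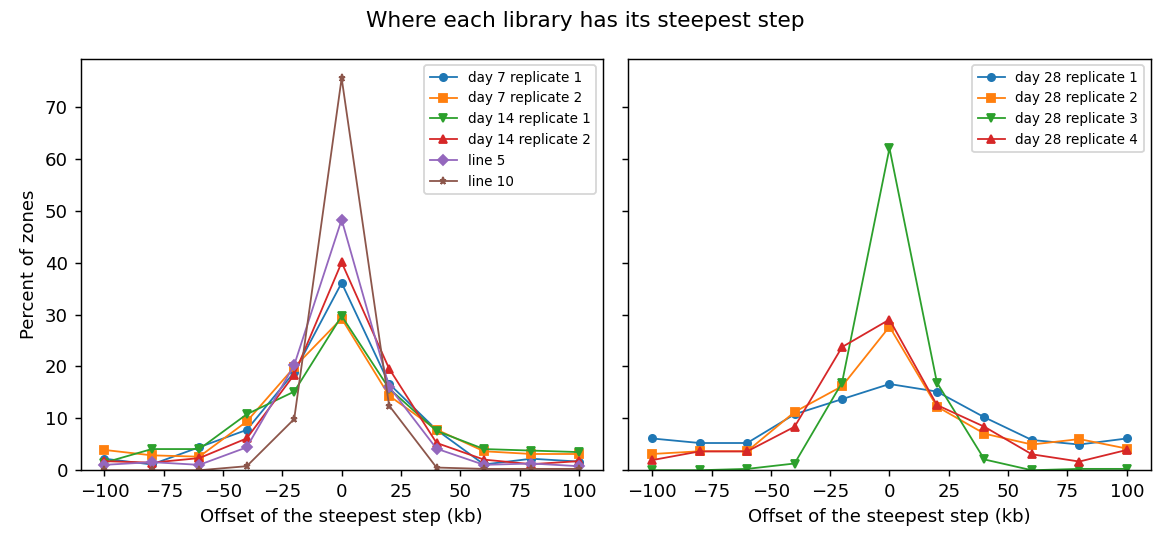
Percent of zones (vertical axis) with their steepest step at each offset in kb (horizontal axis) from the untreated boundary, for day 7, day 14 and the resistant lines (left panel) and for the 4 day 28 libraries (right panel). All libraries shown peak at 0, with 97.9% of zones within 20 kb in line 10 and 45.5% in day 28 replicate 1.

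Steps were higher in line 10 than at day 28, and line 5 did not stand above all 4 day 28 libraries. The mean step of line 5 (34.8) was above those of day 28 replicates 1 and 2 (23.7 and 24.2). It was below those of replicates 3 and 4 (48.5 and 35.2), whose labels conflict. Line 10 was above all 4 day 28 libraries at 308 of 370 zones (83.2%), against 16.7% of all boundaries. Line 5 was above all 4 at 40 of 370 (10.8%), against 13.7%. Both lines were above all 4 day 28 libraries at 39 of 370 zones (10.5%; 5.16% of all boundaries), and no zone had both below (5.63%). With replicates 3 and 4 of day 28 left out, both lines were above the remaining pair at 178 zones (48.1%; 17.7%). Line 10 was above line 5 at 380 of 385 zones (49.4% of all boundaries). Each line has 1 library, so a difference between the lines cannot be told apart from one between libraries. Line 10 was also above all 8 osimertinib libraries of the parental line at 108 of 261 zones (41.4%; 5.61%).

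The limma test found no single zone that differed between the resistant lines and day 28. In the fit over 74312 boundaries, 0 of 261 zones and 0.0% of boundaries had a Benjamini-Hochberg adjusted p under 0.05, and weighting the libraries by their precision (array weights) also gave 0 zones. An unadjusted p under 0.05 was reached by 21 zones (8.05%), all higher in the resistant lines, against 1.5% of boundaries. The mean difference over zones was 22.9 points, and 243 of 261 zones were higher in the resistant lines. The median standard error of a zone was 20.9 points, about as large as that difference. Without line 10 the mean difference was 2.19 points and without line 5 it was 43.7. With day 28 replicates 3 and 4 left out it was 31.7, with 41 zones at an unadjusted p under 0.05 and 0 called. With steps divided by each library's amplitude (defined with the untreated comparison), it was 1.09 points, with 4 zones at an unadjusted p under 0.05.

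Among the zones with the smallest unadjusted p in that comparison is one near NFIA, named after its values were seen. NFIA, which encodes a nuclear factor I transcription factor, starts 17.2 kb right of the zone at chr1:61060000. The step there was 3.89, 6.91, 59.2 and 56.3 points at day 28, 65.3 in line 5 and 126 in line 10. The difference was 64.2 ± 22.6 points (SE; limma, adjusted p = 1.0). Both resistant lines lie above all day 28 libraries there, and day 28 replicates 3 and 4 are close to line 5.

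Day 28 was lower than day 7 and day 14 on average, without a zone that passed the test. All 4 day 28 libraries were below both day 7 libraries at 31 of 264 zones (11.7%; 8.07% of boundaries) and above both at 9 (3.41%; 8.06%). Against day 14 they were below both at 64 of 352 zones (18.2%; 8.64%) and above both at 10 (2.84%; 8.49%). The mean difference was -13.9 points from day 7 and -16.8 from day 14, each with a median standard error of 20.9. These comparisons share the day 28 libraries. The limma fit called 0 of 261 zones in either at an adjusted p under 0.05, against 0.00135% and 0.0% of boundaries. At an unadjusted p under 0.05 it gave 21 zones for day 7 (2 higher and 19 lower at day 28; 11.1% of boundaries) and 33 for day 14 (2 higher and 31 lower; 10.8%). With both directions joined, the share of zones (8.05% and 12.6%) is near or below that of all boundaries. Nearly all of these zones were lower at day 28, and the share of boundaries that were lower was not counted separately. With array weights it also called 0 zones in either. The mean difference from day 7 was -2.42 points without day 7 replicate 1 and -24.3 without replicate 2. That from day 14 was -30.4 without day 14 replicate 1 and -3.14 without replicate 2. With day 28 replicates 3 and 4 left out the differences were -22.7 and -25.6, and with steps divided by amplitude they were -2.28 and 1.49. When day 7 replicate 2 was left out, the limma fit called 2 of 261 zones for day 7 at an adjusted p under 0.05, against 4.71% of boundaries, so zones were not called more often than boundaries in general.

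Against an untreated library left out of the choice, day 28 was lower at every zone tested. The mean differences were -76.3 (261 zones), -80.9 (227 zones) and -65.8 points (335 zones) with untreated replicates 1, 2 and 3 left out in turn. Untreated replicate 1 was above all day 28 libraries at 97.6% of its zones (22.3% of boundaries), replicate 2 at 99.7% (23.6%) and replicate 3 at 96.5% (19.0%). The limma fit called 0 zones at an adjusted p under 0.05 in each choice, with 0.0% of boundaries called. At an unadjusted p under 0.05 it gave 204 of 261, 186 of 227 and 214 of 335 zones, all lower at day 28 (7.46%, 9.7% and 3.9% of boundaries). With array weights it called 2 of 227 zones in the second choice (0.881%; 0.114% of boundaries) and 0 in the others. With day 28 replicates 3 and 4 left out the mean differences were -85.1, -89.2 and -73.9 points. Each fit has a single untreated library, assumed to vary like the other groups.

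The resistant lines were below the untreated library left out at nearly all zones as well. The mean differences were -53.2, -57.8 and -44.6 points, with a single zone above 0 in the first choice. Both lines were below the untreated library at 94.6% (36.3% of boundaries), 95.3% (37.8%) and 90.6% (33.0%) of zones. The limma fit called 0 zones at an adjusted p under 0.05 in each choice (0.0% of boundaries), and 0 with array weights. The unadjusted p was under 0.05 at 59, 64 and 28 zones (2.34%, 3.95% and 0.497% of boundaries). Steps followed the untreated steps less steeply over the whole genome in these libraries. A library's amplitude, the slope of its step on the untreated step over all boundaries, was 0.779 to 0.979 in untreated cells, 0.176 to 0.37 at day 28, 0.25 in line 5 and 0.588 in line 10. This slope is not the size of steps alone. Steps of at least 50 points were at 5.71% to 8.08% of boundaries in untreated libraries and at 5.68% in day 28 replicate 1. In day 28 replicates 2, 3 and 4 they were at 0.656% to 3.38%, in line 5 at 0.285% and in line 10 at 2.93%. With steps divided by amplitude, the differences from untreated replicates 1, 2 and 3 turned to 13.9, 22.5 and 4.72 points higher at day 28 and 15.9, 21.8 and 2.12 higher in the resistant lines. On that scale the mean step was 133 to 134 in each of the 4 groups and 119 in the untreated libraries left out, which were read at their own sets of zones.

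Strong zones lay between genes and close to gene starts, on the side from which transcription leaves. A protein-coding gene start of known strand lay within 50 kb of 307 of 368 zones (83.4%; chromosome 8 is left out of all counts of starts), of 66.5% of weaker zones and of 34.7% of all boundaries. The median distance to the nearest start was 19.7 kb for strong zones, 25.4 kb for weaker zones and 98.3 kb for all boundaries. Only 80 of the 385 boundaries (20.8%) were inside a protein-coding gene, against 25.6% of weaker zones and 45.5% of all boundaries. Genes covered 62.3% of the 200 kb on either side, against 53.6% around weaker zones and 45.4% around all boundaries. The median number of genes within 500 kb was 7 for strong zones, 8 for weaker zones and 5 for all boundaries. Zones thus sit mostly between genes, in stretches with more gene cover but not more genes than around weaker zones. These shares are a description, with no test.

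Of the 307 nearest starts within 50 kb, 251 (81.8%) were transcribed away from the zone, against 68.8% at weaker zones and 45.7% at all boundaries. Starts transcribed away numbered 30.4 per 100 zones at 10 to 20 kb and 27.7 at 20 to 30 kb, with 18.2 in the first 10 kb and 8.42 at 50 to 60 kb. Starts transcribed towards the zone numbered 6.52 and 5.71 in the same 10 kb bins from 10 kb and 20 kb. Over all boundaries both kinds numbered 5.88 to 5.93 in these bins. The excess of starts is therefore in this orientation and mostly within about 50 kb. Where the strand of both neighbouring genes was known (265 zones), the genes pointed away from each other at 40.4% and towards each other at 8.68%. For all boundaries these shares were 25.5% and 22.04%.

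**Figure D4:**
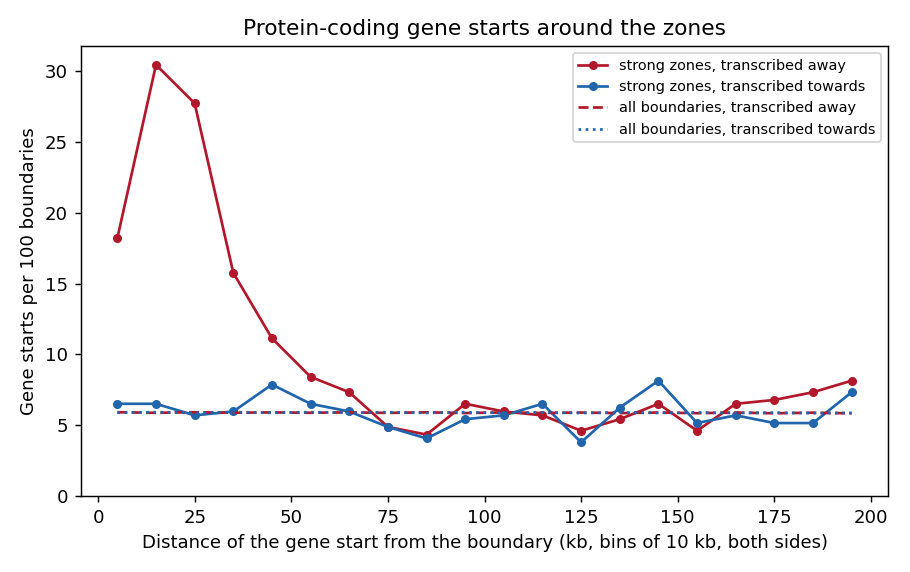
Protein-coding gene starts per 100 boundaries (vertical axis) by distance in kb from the boundary, in 10 kb bins with both sides joined, for strong zones (solid) and all boundaries (dashed and dotted). Starts transcribed away from strong zones peak at 30.4 in the bin from 10 to 20 kb, and starts transcribed towards them stay between 3.80 and 8.15.

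The promoters within 50 kb of a zone were richer in CG than promoters in general. Their 500 windows of 300 bases had a median of 27 CG pairs against 22 over all 15100, and 74.8% held at least 15 against 65.8%. Their median GC content was 66.7% against 62.7%. The GC box letters GGGCGG were in 68.6% against 58.7%, and the letters TATAAA in 6.8% against 9.83%. A GC box can hold CG, so these counts overlap. The 6 promoters printed above have GC contents from 62.3% (UBASH3B) to 77.3% (STON2).

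Zones lay next to several receptors and kinases that matter in EGFR-mutant lung cancer. Of 16 genes of EGFR and bypass signalling with a known start, 5 started within 50 kb of a zone, against 500 of 15100 genes (3.31%). The list was chosen with earlier results of these data known, so this share is a description and was not tested. The 5 genes are EGFR itself, the receptor tyrosine kinases AXL, FGFR3 and ROS1, and the SRC family kinase YES1. The zone 19.0 kb before EGFR had 103, 116 and 95.6 points in untreated cells, 57.0 and 21.6 at day 7 and 45.2 and 28.7 at day 14. It had 57.5, 29.9, 34.8 and 28.2 at day 28, 38.4 in line 5 and 71.1 in line 10. All 10 libraries other than untreated keep a rise before EGFR. This rise is below every untreated value, but the untreated values chose the zone.

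The zone 19.2 kb before AXL, a receptor that can bypass EGFR, is among the weakest by the rule. It had 104, 106 and 89.4 points in untreated cells, 33.7 and 36.6 at day 7 and 52.8 and 83.4 at day 14. It had -14.6, 30.3, 39.9 and 12.3 at day 28, 29.0 in line 5 and 41.2 in line 10. Day 28 replicate 1 thus showed a fall of polarity there, line 5 lies inside the range of day 28 and line 10 just above it. The YES1 zone, 27.2 kb from the start of the gene, had 118 to 129 in untreated cells, 24.8 to 51.5 at day 28, 25.0 in line 5 and 76.2 in line 10. The FGFR3 zone had 103 to 118 in untreated cells, and -31.9, 21.0, 68.3 and 12.9 at day 28, the widest spread of day 28 among these 5. The ROS1 zone was the highest of the 5 in untreated cells (129 to 137) and had 33.3 to 60.8 at day 28, 33.4 in line 5 and 72.1 in line 10.

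Of 5 genes known for a mapped replication origin, TOP1, which encodes DNA topoisomerase I, had a zone within 50 kb. This zone, 28.8 kb before the gene, had 115, 137 and 120 points in untreated cells and 65.4, 21.3, 54.8 and 46.0 at day 28. It had 90.8 and 63.3 at day 7, 55.3 and 42.5 at day 14, 59.1 in line 5 and 86.5 in line 10. Its values stayed positive in all libraries. Among 11 tumour suppressors NF1, a negative regulator of RAS, was the only one with a zone in reach. Its zone had 76.9, 131 and 98.3 points in untreated cells, with 100 passed in replicate 2 alone, and 15.1 to 58.5 at day 28. Among 11 epithelial and mesenchymal genes it was ITGB1, which encodes integrin beta 1, with 99.4 to 128 in untreated cells, 6.37 to 70.4 at day 28 and 53.1 and 79.7 in lines 5 and 10. None of 11 cell cycle oncogenes and none of 23 genes of origin licensing and replication started within 50 kb of a zone. The share over all genes was 3.31%, and lists this short cannot show a lower one. These counts cover only list members with a known start, and the lists were chosen with earlier results of these data known.

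Common fragile sites are regions that break under replication stress, often within long genes that replicate late. Of 12 genes at such sites with a known start, 3 had a zone within 50 kb of it, against 3.31% of all genes. This list too was chosen with earlier results of these data known. WWOX, an oxidoreductase gene, starts 0.346 kb from its zone. Its step was 118, 98.8 and 86.1 points in untreated cells, 91.1 and 19.6 at day 7, -20.7 and 98.2 at day 14, and -8.53, 14.4, 20.8 and 65.8 at day 28. It was 13.9 in line 5 and 55.1 in line 10. The zone at DPYD, which encodes the pyrimidine catabolic enzyme dihydropyrimidine dehydrogenase, had 94.1 to 109 in untreated cells, 27.1 and 17.2 at day 7, -6.50 and 20.01 at day 14, 30.0 to 48.7 at day 28 and 27.2 and 49.0 in lines 5 and 10. The zone at PTPRG, a receptor tyrosine phosphatase gene, had 92.4 to 128 in untreated cells, -2.50 in day 7 replicate 2, 20.3 and 52.8 at day 14, 12.8 to 45.9 at day 28 and 38.2 and 80.5 in lines 5 and 10. Day 14 replicates lay on either side of 0 at WWOX and DPYD, and were farthest apart at WWOX.

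The steepest zone of all lay between TENM2 and WWC1, at chr5:168280000, 11.6 kb before the WWC1 promoter printed above. WWC1 encodes KIBRA, a regulator of the Hippo pathway. The step there was 161, 175 and 141 points in untreated cells, 38.4 and 59.5 at day 7 and 62.2 and 103 at day 14. It was 70.9, 54.4, 80.6 and 43.4 at day 28, 56.6 in line 5 and 105 in line 10. Every library kept a rise of at least 38.4 points. The untreated values, which chose and ranked this zone, were above all others, and this is a description only. Its resistant minus day 28 difference was 18.6 ± 23.1 points (SE; limma, adjusted p = 1.0).

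The zone 15.7 kb before UBASH3B, a phosphatase that acts on receptor tyrosine kinase signalling, had 165, 147 and 143 points in untreated cells. It had 36.7 and 69.5 at day 7, 66.5 and 69.8 at day 14, and 7.35, 43.4, 77.6 and 89.5 at day 28. It had 44.9 in line 5 and 117 in line 10. The 4 day 28 libraries spread over the whole range of the day 7 and day 14 libraries here, and line 10 lay above them. The zone before ARHGEF4 had 141, 171 and 132 in untreated cells and 29.4, -16.6, 53.1 and 28.8 at day 28. It was the only one of the 8 steepest zones with a step below 0 in any library. The zone before ARHGAP10 had 148, 165 and 128 in untreated cells, 119 and 44.8 at day 7 and 36.9 and 1.67 at day 14.

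The zone beside STON2, an endocytic adaptor, lay 3.54 kb from the start and had 160, 149 and 122 points in untreated cells. It had 64.9, 8.46, 78.5 and 19.9 at day 28, and no step in 1 day 7 and 1 day 14 library. The zone between DCAF1, a substrate receptor of a CUL4 ubiquitin ligase, and RAD54L2, a helicase of the SNF2 family, had 146, 140 and 139 in untreated cells, the closest agreement among the 8. It had 75.3, 50.4, 47.9 and 64.3 at day 28, 40.5 in line 5 and 90.8 in line 10. The zone beside TENT4A, a non-canonical poly(A) polymerase, had 129 to 150 in untreated cells, 35.8 to 70.2 at day 28 and 41.2 and 109 in lines 5 and 10. The zone beside COBL, an actin nucleator, had 129 to 158 in untreated cells, 40.2 to 79.1 at day 28 and 47.1 and 101 in lines 5 and 10. In each of these zones line 10 lay above every day 28 library and line 5 within or below their range.

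The most persistent zones, by their lowest value over the 10 libraries, lay beside MAFK, DCAF1, COBL, WWC1, NOC3L and C10orf67. The zone between INTS1, a subunit of the Integrator complex, and MAFK, a small Maf transcription factor, kept at least 49.9 points. It had 113, 117 and 95.01 in untreated cells, 107 and 53.4 at day 7, 66.8 and 68.4 at day 14, and 56.9, 82.1, 49.9 and 74.2 at day 28. It had 51.2 in line 5 and 77.3 in line 10, so day 28 and the resistant lines overlap. The zone between NOC3L, a nucleolar protein gene, and TBC1D12 had 126 to 134 in untreated cells and 127 and 110 at day 7, where replicate 1 lies inside the untreated range. It had 37.2 to 76.2 at day 28 and 45.3 and 105 in lines 5 and 10. The zone near C10orf67 had 73.1 to 130 in untreated cells and 36.7 to 69.1 at day 28, so those ranges nearly meet.

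The zones with the lowest single values lay beside HDAC4, DYRK1A, ADAMTS12, FCHO2, HMGN1 and NPEPPS, and in each the low value came from 1 or 2 libraries. NPEPPS encodes an aminopeptidase. Its zone had -65.6 points in day 28 replicate 1 and 36.7, 32.5 and 56.1 in the other replicates. The zone between BRWD1 and HMGN1, a nucleosome-binding protein gene, had -58.6 in day 28 replicate 1 and 7.88, 45.0 and 43.5 in the others. It had 121 and 78.7 at day 7, 81.3 and 83.1 at day 14, 46.8 in line 5 and 111 in line 10. Day 28 replicate 1 was also the lowest at the zone of the kinase gene DYRK1A (-37.4).

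At HDAC4, which encodes a histone deacetylase, and at the zone between TARS1 and ADAMTS12, day 7 replicate 1 was the low library, with -36.6 and -37.9. The other 9 libraries there were all above 0. The zone before FCHO2, an endocytic protein gene, had -33.7 in day 7 replicate 2 and -38.9 in day 14 replicate 2. No resistant line was below 0 at any of these 6 zones, where line 5 had 9.09 to 46.8 and line 10 had 46.6 to 111.

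**Figure D5:**
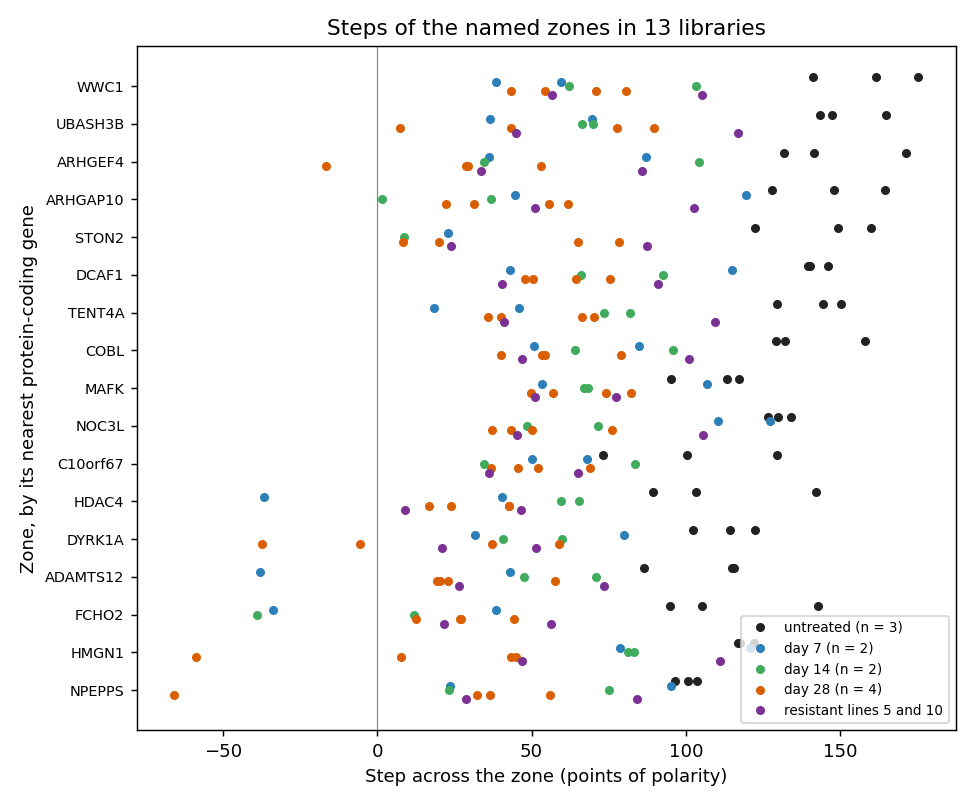
Step across each named zone (horizontal axis, points of polarity) in the 13 libraries, coloured by group; the zones are listed by their nearest protein-coding gene, from the 8 with the highest untreated step at the top to the 6 with the lowest single values at the bottom. Values below 0 come from day 7, 14 and 28 libraries, down to -65.6 at NPEPPS, and the resistant lines are above 0 at all named zones.

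The steps of single zones were compared between libraries as a description. Across the 261 zones with all 13 libraries, which share the selection on the untreated mean, the steps of untreated replicates correlated at Pearson r of 0.261 to 0.367. Those of untreated replicate 3 correlated at 0.535 with day 28 replicate 3, 0.492 with line 10 and 0.0866 with day 28 replicate 1. Selection narrows the range of untreated steps, and zones are not independent replicates.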

How the data were processed

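The authors deposited strand polarity scores in percent for 20 kb windows every 10 kb (signed, from the values), per the file headers 1 column per library. Trim Galore 0.6.5 and Bowtie2 2.4.1 are named in the submitters' processing notes, with the builds GRCh38 and GRCm38; chromosome ends match GRCh38. The counting of reads is described in no source used here. The zones, comparisons and lists were chosen with earlier results of these data known. From the deposited scores, steps were computed (a side needs 2 of 3 windows; the choice of zones all 3, in all untreated libraries). Steps at the 74312 boundaries with all 13 libraries were fitted in limma 3.58.1 (R 4.3.3; lmFit, eBayes with trend, 1 coefficient per group) with Benjamini-Hochberg adjustment, after the script was tested on simulated data; other values used Python 3.11.15. Named zones are the 8 highest in untreated cells, the 6 highest and 6 lowest by their lowest value in 10 libraries, called zones (none), and list genes within 50 kb. Gene spans came from the RefSeq table (GRCh38.p14) and strands and starts from its promoter table, which held 15100 of 19122 protein-coding genes; zones are therefore named by the nearest gene, not the nearest start as first planned. Alternatives changed thresholds, windows, weights, scaling, libraries and pairing. The result at 1 zone is not reported here.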

Additional observations from a re-analysis of the deposited data

Results flagged for a closer look

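At the zone between TARS1 and ADAMTS12 (chromosome 5), day 28 replicate 3 had a step of 57.6 points, far from the 19.3 to 23.03 of the other 3 day 28 libraries (gap of 0.902 of the whole range). This was 1 of 19 zone values tested for a lone high or low library, and chance marks about 1 in 20 such groups. Replicate 3 is also a library with conflicting labels, and its part in this value was not tested.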

How the results depend on the processing

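The rule gave 1093 zones at 80 points, 94 at 120, and 341 to 509 when an untreated library was left out. Mean steps divided by library amplitude were 133.4 (day 7), 133.0 (day 14), 133.7 (day 28), 134.3 (resistant lines) and 118.9 (untreated, left out of the choice). The last was otherwise 90.5 at 80 points, 120.3 at 120 points and 92.3 with 2 windows a side. Leaving out single libraries moved the mean steps to 34.9 to 57.1 (day 7), 35.9 to 64.0 (day 14), 27.7 to 35.9 (day 28), 34.8 to 76.2 (resistant lines) and 98.9 to 99.97 (untreated). With single libraries left out, the count of called zones went from 0 to 2 for day 28 against day 7 (2 without day 7 replicate 2) and was 0 to 0 in the other contrasts. Array weights called 2 zones for day 28 against untreated replicate 2. Amplitude scaling turned the mean difference of day 28 from day 14 to 1.49, from untreated replicate 1 to 13.9 (13.7 with array weights, an alternative chosen after seeing the data) and of the resistant lines from it to 15.9 (15.9 with weights). Against untreated replicate 3 these were 4.72 (0.0116 with weights) and 2.12 (2.12 with weights); the scaling removes each library's overall height by construction. A gene start lay within 25 kb of 62.2% and within 100 kb of 88.3% of zones. As deviations from their group means, same-numbered libraries correlated at -0.0376 to 0.0448, so replicate numbers gave no sign of pairing by this measure. These are not correlations of the steps at zones, where untreated replicate 3 and day 28 replicate 3 had 0.535. With the replicate block 0 zones were called in each contrast, and for day 28 against untreated replicate 3 the zones at an unadjusted limma p under 0.05 went from 214 to 1. Allowing missing steps, also chosen after seeing the data, called no zone otherwise uncalled. Read depth is unknown, and the standard error of a zone was about 20.9 points in the contrasts without untreated libraries.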

Other observations

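Zones inside a gene had lower mean steps than zones between genes in 9 of the 10 libraries not used by the rule. In day 7 replicate 2 they had 34.99 against 34.82 points. The untreated libraries, which chose the zones, had the lower step inside a gene too (112.6 against 115.3, 118.4 against 120.4 and 100.1 against 104.8 points). The 80 zones inside a gene had 22.2 and 46.3 points in day 28 replicates 2 and 3, 30.2 in line 5 and 70.7 in line 10. The 305 zones between genes had 24.7 and 49.0 in the same replicates, 36.0 in line 5 and 77.7 in line 10. Zones whose neighbouring genes pointed towards each other (21 and 23 zones) had 9.31 and 17.4 points in day 28 replicates 1 and 2, against 26.3 and 26.8 where they pointed away from each other (103 and 107 zones). In line 10 these kinds of zone were closer (75.3 against 77.3). The order was the opposite in day 28 replicate 3 (48.9 against 48.5) and day 7 replicate 1 (60.7 against 60.2). It was also the opposite in day 14 replicate 2 (72.3 against 66.6) and line 5 (36.6 against 34.0). The untreated libraries, which chose the zones, had 109.2 against 116.5, 115.5 against 121.4 and 100.0 against 106.4 points. None of these differences was tested.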
